A study of Homo sapiens with 4 samples.

Results

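Histone genes were followed in A2780 cells, an established human line from ovarian cancer, after treatment with wogonin, a plant flavone. The genes were every protein-coding row whose symbol starts with HIST1H to HIST4H, H2AF, H3F3 or H1F, and 87 of the 57773 genes in the deposited tables met that rule. Of these, 71 lie in the histone clusters (6 H1, 17 H2A, 18 H2B, 15 H3 and 15 H4 genes) and 16 are variant genes outside them. The vehicle group held 2 libraries of cells given DMSO (DMSO 1 and DMSO 2), with no treatment time in the labels. The treated group held 2 libraries of cells given wogonin at 10 ug/mL for 48 h (wogonin 3 and wogonin 4). All 4 libraries are labelled WT and come from this 1 line. The study asked whether wogonin holds back ovarian cancer growth through DNA demethylation. Only transcript levels were measured, and they do not address growth or DNA methylation.

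Core histones H2A, H2B, H3 and H4 form the nucleosome, and linker histone H1 binds the DNA that enters and leaves it. The clustered genes are replication-dependent: they are transcribed mainly in S phase, and most of their mRNAs end in a conserved stem-loop in place of a poly(A) tail. Variant genes such as H2AFZ or H3F3B are expressed through the cell cycle, mostly from polyadenylated mRNAs, and their proteins exchange into chromatin outside replication. Some cluster genes also give longer, polyadenylated transcripts, which are known from cells that leave the cycle or differentiate. A SMARTER mRNA kit was used for the libraries, per the labels, and the sources used here do not give how cDNA synthesis was primed. The reads do not tell apart the number of mRNA molecules from the share of them that is polyadenylated.

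The stem-loop that sets the cluster mRNAs apart was read from GENCODE v29 transcripts (GRCh38), in the bases after the stop codon. It is a stem of 6 base pairs with a loop of 4 bases. It is shown for some of the cluster genes that rose or fell and for the variant gene that carries it. HIST1H2BN and HIST2H3A, which also rose, carry it too and are not shown. Capitals mark the stem, and the loop is in lower case.
HIST1H2AC: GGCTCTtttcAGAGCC
HIST1H2BD: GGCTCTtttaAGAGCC
HIST1H4H: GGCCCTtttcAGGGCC
HIST1H2AG: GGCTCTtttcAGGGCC
HIST2H4B: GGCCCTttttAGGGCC
H2AFX: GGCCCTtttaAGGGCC
Of 47 histone genes with at least 60 bases annotated after the stop codon, 32 held the element. Over all coding gene names with as many bases there it was 48 of 18697 (0.257%), these 32 included. The 32 histone genes were 31 of 32 cluster genes and 1 of 15 variant genes, H2AFX. The cluster gene in which it was not found was HIST1H2BJ. Only 2 of its 3 coding transcripts had enough bases after the stop codon to be searched, so the gene may still hold it. HIST1H2AC has a transcript that runs 1114 bases past the stem-loop, HIST1H2AG 1761 bases and H2AFX 1044 bases. HIST1H2BK, HIST2H2AC, HIST1H4J and HIST1H1C had too few bases annotated after the stop codon to be assessed.

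Promoters were read from RefSeq (GRCh38.p14, a later build than the files' own) for 76 of the 87 genes, and 4 letter motifs were searched on both strands of the 250 bases before the start. They were CCAAT (the NF-Y box), TATAAA, the octamer ATTTGCAT known from H2B promoters, and TTTGAA (the core of the cell cycle element CHR). Shown here are the last 150 bases before the start of 2 H2B genes of which 1 rose and the other did not pass, and of 2 variant genes that fell. Capitals mark matches to the motifs.
HIST1H2BK (chr6:27146859-27147008, minus strand): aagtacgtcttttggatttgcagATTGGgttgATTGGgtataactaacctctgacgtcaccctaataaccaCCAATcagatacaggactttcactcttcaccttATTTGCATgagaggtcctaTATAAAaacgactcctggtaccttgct
HIST1H2BJ (chr6:27132796-27132945, minus strand): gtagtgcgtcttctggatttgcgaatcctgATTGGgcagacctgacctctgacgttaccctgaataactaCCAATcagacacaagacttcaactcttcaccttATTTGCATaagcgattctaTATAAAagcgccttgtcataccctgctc
H2AFX (chr11:119095466-119095615, minus strand): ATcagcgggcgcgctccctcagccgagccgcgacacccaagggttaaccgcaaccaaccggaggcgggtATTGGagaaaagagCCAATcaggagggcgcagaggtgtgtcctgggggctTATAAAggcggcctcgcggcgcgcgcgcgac
H1FX (chr3:129316287-129316436, minus strand): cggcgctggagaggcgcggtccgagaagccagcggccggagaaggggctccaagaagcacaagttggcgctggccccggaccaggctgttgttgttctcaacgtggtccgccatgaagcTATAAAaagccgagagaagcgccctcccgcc
CCAAT stood in 52 of 62 cluster promoters and in 33.0% of the 27305 RefSeq promoters. TATAAA stood in 42 of 62 against 11.1% of all promoters, and the octamer in 22 of 62 against 1.66%. The octamer was found in 10 of 14 H2B and 11 of 16 H2A promoters, in 1 of 13 H3 promoters and in none of the 13 H4 or 6 H1 promoters. These are not all separate elements. Windows of neighbouring H2A and H2B genes can overlap, as for HIST1H2AC and HIST1H2BC, so 1 match may count for both. The H3 promoter with the octamer was that of HIST1H3D, whose window is the same as that of HIST1H2AD. TTTGAA stood in 21 of 62 cluster promoters against 13.6% of all. The variant genes held CCAAT in 11 of 14, TATAAA in 4, and the octamer and TTTGAA in 1 each. Genes that rose held CCAAT in 5 of 7, and genes that fell in 7 of 11. Matches are letters in a window and were not tied to binding here.

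Exon reads ranged from 11005921 to 11839562 a library. The mitochondrial share was 1.45 to 1.67% in 3 libraries and 3.03% in wogonin 4, and introns took 7.96% of gene reads in wogonin 3 against 5.26 to 5.61% in the others. The part of these differences in the histone results was not tested, and each call is given below with any library on which it rests. VIM, a mesenchymal filament gene, stood between 9227 and 10248 CPM (reads per 1000000 after TMM scaling). PAX8, WT1 and MUC16, markers in use for ovarian carcinoma, and the keratins KRT7, KRT18 and KRT19 had at most 2 reads in any library. These markers thus do not show the ovarian origin of the line, which was not tested here. KRT8 had at most 5 reads, and EPCAM had 8, 9, 4 and 2. Leukocyte and endothelial markers PTPRC, CD3E, ITGAM, CDH5 and VWF were at 0. PECAM1, also chosen as an endothelial marker, was not found by that name. CD14 had at most 3 reads. Of 6 fibroblast markers, COL3A1 was high and lower with wogonin, at 762, 706, 605 and 596 CPM, and COL1A1 had 12.9, 10.4, 7.08 and 7.55 CPM. COL1A2 had at most 2 reads and PDGFRB at most 5, and DCN and LUM stood between 1.12 and 1.87 CPM. Their part in the histone results was not tested.

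Of the 87 genes, 33 had enough reads for the test and 54 did not. In the treated libraries 7 of the 33 were higher and 12 were lower by edgeR's quasi-likelihood test at an adjusted p under 0.05. Over all 13449 genes tested, 63.8% passed in either direction, 32.3% higher and 31.5% lower, so the number of histone genes that passed is close to that background. The median log2 fold change of the 33 genes was 0.02, and that of all genes was also near 0. The variant genes mostly fell: of 10 tested 8 fell and 1 rose, with a median of -0.82. The cluster genes went both ways: of 23 tested 6 rose, 4 fell and 13 did not pass, with a median of 0.38. Over all genes 32.3% rose and 31.5% fell. These classes were not compared by a test. Falls of at least 1 log2 unit were seen in 4 of the 10 variant genes and 2 of the 23 cluster genes, against 9.94% of all genes. Rises of at least that size were seen in none of the variant genes and in 5 cluster genes, against 6.31% of all genes. The libraries of the groups did not overlap for 29 of the 33 genes, against 81.9% of all genes tested. For 8 of the 33, reads reached the count minimum of 0.878 CPM in both libraries of no more than 1 group, so they entered the test mostly through the group where they were high. Of these 8, the 3 that passed were HIST2H3A, HIST2H2AC and HIST1H4J. Without the 8, 25 genes remained, of which 6 rose and 10 fell. Falls of at least 1 log2 unit then numbered 4, all in variant genes, and rises of that size 4, all in cluster genes.

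**Figure D1:**
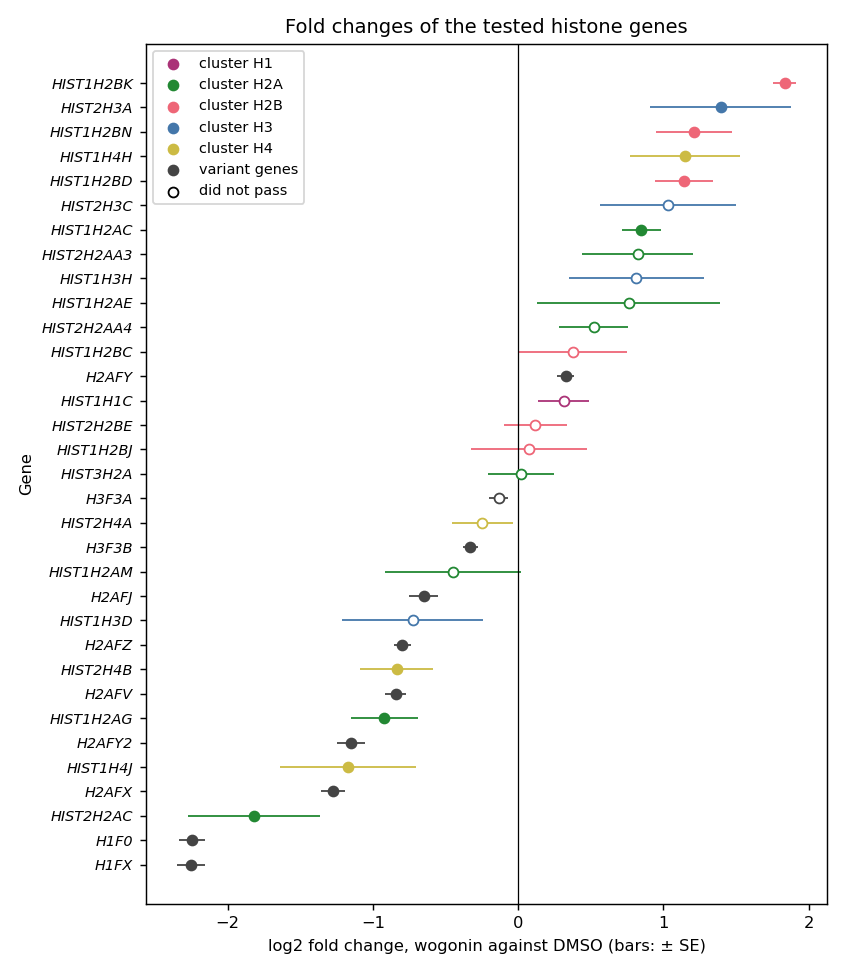
Log2 fold change (horizontal axis, wogonin against DMSO, bars ± SE, 2 libraries a group) of the 33 histone genes tested, coloured by class, with open circles for genes that did not pass. The variant genes lie mostly to the left, from -2.25 for H1F0 and H1FX to 0.33 for H2AFY, and HIST1H2BK is farthest to the right at 1.83.

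Summed over all 87 genes, histone transcripts made up 0.236% and 0.242% of exon reads in the DMSO libraries and 0.146% and 0.140% in the wogonin libraries, a ratio of treated to vehicle of 0.598. The variant genes made up most of this, with 0.225%, 0.231%, 0.126% and 0.121% (ratio 0.541). The cluster genes had 1321 and 1343 reads in the DMSO libraries and 2221 and 2174 in the wogonin libraries, a ratio of shares of 1.73. A single gene carried much of that rise: without HIST1H2BK the cluster genes had 961, 986, 1043 and 1058 reads, a ratio of 1.13. By protein, the ratio was 2.58 for H2B, 1.33 for H3, 1.16 for H1, 1.13 for H2A and 0.729 for H4. The H3, H2A and H4 ratios each lean on a single gene or pair of copies. The H3 genes had 47, 49, 60 and 62 reads, of which HIST2H3A and HIST2H3C had 10, 22, 31 and 35. The H2A genes had 394, 375, 428 and 404 reads, of which HIST1H2AC had 113, 128, 192 and 197. The H4 genes had 198, 226, 149 and 146 reads, of which HIST2H4A and HIST2H4B had 142, 179, 101 and 96. Without HIST1H2BK the H2B genes had 236, 243, 300 and 354 reads, a ratio of 1.43. By location, the HIST1 genes on chromosome 6 had a ratio of 2.08, which was 1.28 without HIST1H2BK, and the HIST2 and HIST3 genes on chromosome 1 of 0.904 and 0.906. With 2 libraries in each group the smallest p of an exact permutation test is 0.333, and the sums are given with no test.

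**Figure D2:**
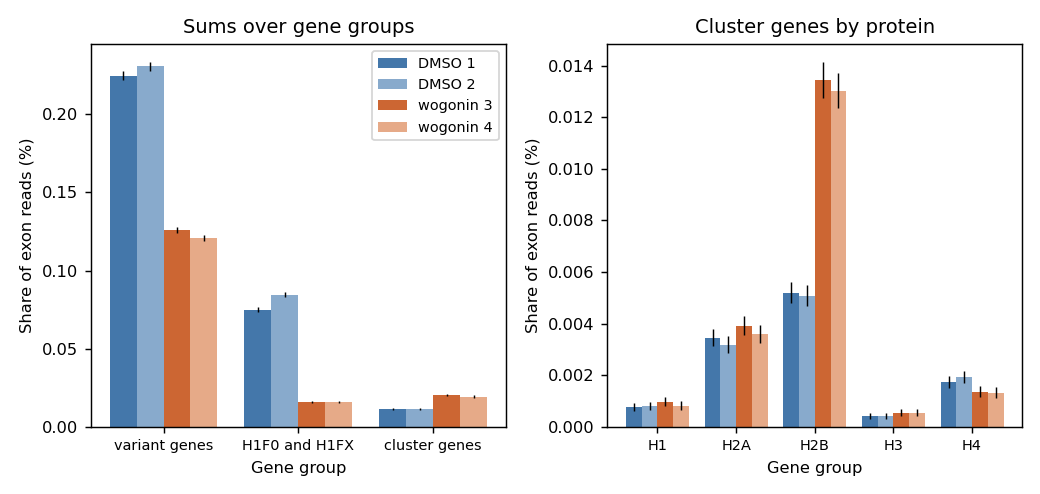
Share of all exon reads (vertical axes, %) taken by sums of histone genes in each of the 4 libraries, with 95% Wilson intervals that cover counting error only. Variant genes and the linker pair H1F0 and H1FX are lower in both wogonin libraries (left), and cluster H2B is higher, with 1478 and 1470 reads against 596 and 600 (right), of which HIST1H2BK alone had 1178 and 1116 against 360 and 357.

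The linker histones of the variant kind fell most. H1F0 encodes the linker histone H1.0, known to build up in resting and differentiated cells. It lies on chromosome 22 (38201114 to 38203442, plus strand, GRCh37, as do all gene coordinates here) in 1 exon. Its level was 536 and 648 CPM with DMSO and 121 and 129 CPM with wogonin. Both treated libraries lie far below both vehicle libraries. The means of 592 ± 78.7 and 125 ± 5.60 CPM (SD, n = 2) differ 4.74-fold (log2 fold change -2.25, SE 0.09, edgeR adjusted p = 2.4e-08). H1FX encodes the linker histone H1X, and lies on chromosome 3 (129033615 to 129035120, minus strand). It stood at 191 and 168 CPM with DMSO and at 41.4 and 33.8 CPM with wogonin, 4.77-fold lower (log2 fold change -2.25, SE 0.10, edgeR adjusted p = 1.3e-09). By log2 fold change from the lowest up, H1FX ranked 184 and H1F0 ranked 186 of the 13449 genes tested. Together they made up 0.0747% and 0.0846% of exon reads in the vehicle libraries and 0.0158% and 0.0156% in the treated ones, a ratio of 0.197.

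The H1FX count has limits of its own. Only 47.8% of its reads matched 1 place, and with those alone the log2 fold change was -2.39. The gene overlaps H1FX-AS1 on the opposite strand, which had 60, 63, 13 and 7 exon reads in the order DMSO 1, DMSO 2, wogonin 3 and wogonin 4. Whether the authors' counting used strand is not stated in the sources used here, so reads of the pair may not be told apart. All reads of H1F0 matched 1 place, and its log2 fold change with them was also -2.25.

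The authors' RPKM is per exon length, and the tested linker genes each have 1 exon. H1F0 had a mean of 242 RPKM with DMSO and 46.7 with wogonin, and H1FX went from 113 to 21.7 RPKM. HIST1H1C, the tested cluster H1 gene, was lower at 8.97 and 10.2 RPKM. In genes with several transcripts the exon length can exceed that of the main mRNA, so their RPKM are not ranked against these. Its levels were 6.95, 6.84, 9.04 and 8.10 CPM, and the difference did not pass (log2 fold change 0.31, edgeR adjusted p = 0.13). Of the other variant linker genes, H1FOO (oocytes) and H1FNT (testis) had too few reads to test.

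**Figure D3:**
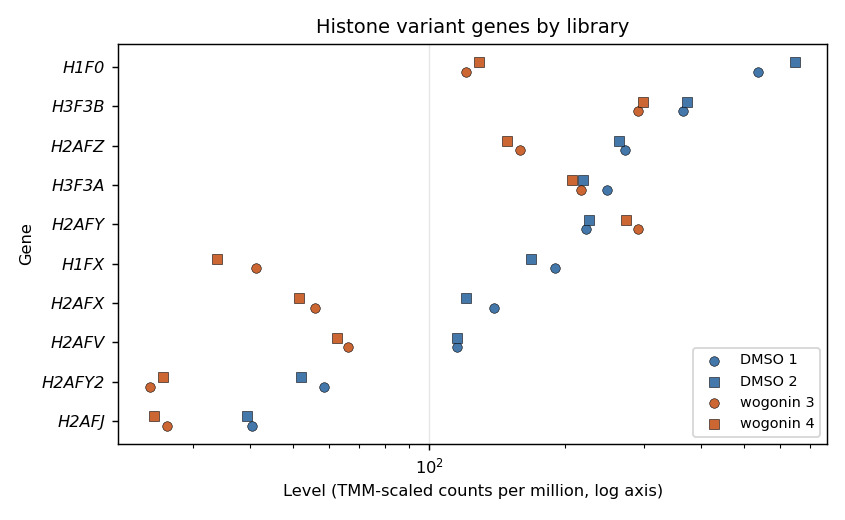
Level (horizontal log axis, TMM-scaled CPM) of the 10 histone variant genes tested, 1 point a library. H1F0 and H1FX show the widest gap between DMSO (blue) and wogonin (orange), H2AFY is the gene whose wogonin points lie to the right, and the points of H3F3A lie close together.

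Of the H2A variants, 5 fell and 1 rose among the 6 tested, beside 31.5% and 32.3% of all genes. H2AFX encodes H2A.X, which is phosphorylated around DNA breaks. It had 139 and 121 CPM with DMSO and 55.9 and 51.4 CPM with wogonin (log2 fold change -1.28, SE 0.08, edgeR adjusted p = 3.0e-09), with all reads in 1 place (chromosome 11, 118964564 to 118966177). Both treated libraries were below both vehicle libraries. Its mean with DMSO was 76.6 RPKM.

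H2AFZ and H2AFV encode the H2A.Z proteins found at promoters and enhancers, and they fell by like amounts. H2AFZ had 271, 263, 159 and 148 CPM (log2 fold change -0.80, SE 0.06, edgeR adjusted p = 1.1e-08). H2AFV had 115, 115, 66.1 and 62.4 CPM (log2 fold change -0.84, SE 0.07, edgeR adjusted p = 4.1e-08). The H2AFV reads in introns were lower too, at 760, 836, 331 and 317. Together the pair went from 382 ± 5.74 to 218 ± 10.1 CPM (SD, n = 2). H2AFJ encodes H2A.J, known from senescent cells, and had 40.5, 39.4, 26.3 and 24.6 CPM (log2 fold change -0.65, SE 0.10, edgeR adjusted p = 2.1e-05). Its treated libraries were again the lower ones.

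The macroH2A genes went in opposite directions. Their products carry a large macrodomain and are known from silenced chromatin, including the inactive X chromosome. H2AFY2 (macroH2A2) had 58.4, 52.1, 24.0 and 25.7 CPM (log2 fold change -1.15, SE 0.10, edgeR adjusted p = 4.1e-08). H2AFY (macroH2A1) had 222, 226, 290 and 273 CPM (log2 fold change 0.33, SE 0.06, edgeR adjusted p = 1.0e-04), the single rise among the variant genes. With reads that matched 1 place (71.5% of those of H2AFY2 and 63.7% of those of H2AFY), the log2 fold changes were -1.17 and 0.29. In exon-exon junction reads, a column chosen as an alternative after seeing the data, they were -1.16 and 0.25, and both passed. In that column 9 histone genes could be tested and all passed, 3 higher and 6 lower, beside 55.7% of 11251 genes. H2AFY2 overlaps AIFM2 on the other strand, which had 76, 88, 125 and 106 exon reads. H2AFY overlaps C5orf66 on the other strand, which had at most 31 exon reads in any library. The H2AFB genes of the testis had too few reads to test.

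H3F3A and H3F3B encode 1 and the same protein, histone H3.3, which is placed at active genes and at telomeres outside replication. H3F3B had 366, 373, 290 and 298 CPM (log2 fold change -0.33, SE 0.05, edgeR adjusted p = 6.1e-05), and the treated libraries were both lower. It overlaps UNK on the other strand, which had 521, 483, 244 and 254 exon reads. Its part in the H3F3B counts was not tested. H3F3A had 247, 219, 217 and 208 CPM, which do not overlap, but the difference did not pass (log2 fold change -0.13, SE 0.07, edgeR adjusted p = 0.082). Without DMSO 2 it passed at -0.22 (adjusted p = 0.025). It also passed with library totals alone (-0.23, adjusted p = 0.0060), with no filter, with total gene reads (-0.21, adjusted p = 0.025; 59.1% of all genes passed there) and with junction reads. Only 0.451% of the H3F3A reads matched 1 place, against nearly all of those of H3F3B. Junction reads of H3F3A were 1345, 1151, 956 and 939, a log2 fold change of -0.24 (adjusted p = 0.016), and those of H3F3B gave -0.46. Summed, H3.3 transcripts went from 603 ± 15.0 to 507 ± 1.18 CPM (SD, n = 2). H3F3C had too few reads to test.

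Among the cluster genes the H2B gene HIST1H2BK stood apart in level. HIST1H2BK (chromosome 6, 27106073 to 27114619, minus strand), whose promoter is printed above, had 30.5 and 29.1 CPM with DMSO and 110 and 103 CPM with wogonin. The means of 29.8 ± 0.998 and 106 ± 4.98 CPM (SD, n = 2) differ 3.57-fold (log2 fold change 1.83, SE 0.08, edgeR adjusted p = 3.5e-11). By log2 fold change from the highest down it ranked 309 of the 13449 genes tested. Its mean went from 34.6 to 113 RPKM. Reads that matched 1 place made up 96.4% of its total. Its junction reads, which come from spliced transcripts and not from the short intronless one, were 27, 31, 86 and 66, a log2 fold change of 1.54 (adjusted p = 1.2e-05). The opposite-strand gene HIST1H4I within it had at most 8 exon reads in any library.

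HIST1H2BN and HIST1H2BD rose from lower levels. HIST1H2BN had 4.24 and 4.24 CPM with DMSO and 7.08 and 12.5 with wogonin, the last well above the rest (log2 fold change 1.21, SE 0.26, edgeR adjusted p = 0.0015). The log2 fold change was 0.74 without wogonin 4 and 1.57 without wogonin 3. HIST1H2BD had 3.98, 4.07, 9.60 and 8.19 CPM (log2 fold change 1.14, SE 0.20, edgeR adjusted p = 1.0e-04), and its junction reads were 7, 9, 17 and 14. HIST2H2BE, HIST1H2BJ and HIST1H2BC did not pass, with log2 fold changes of 0.12, 0.07 and 0.38. The promoter of HIST1H2BJ, printed beside that of HIST1H2BK, holds the same octamer and TATAAA match.

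**Figure D4:**
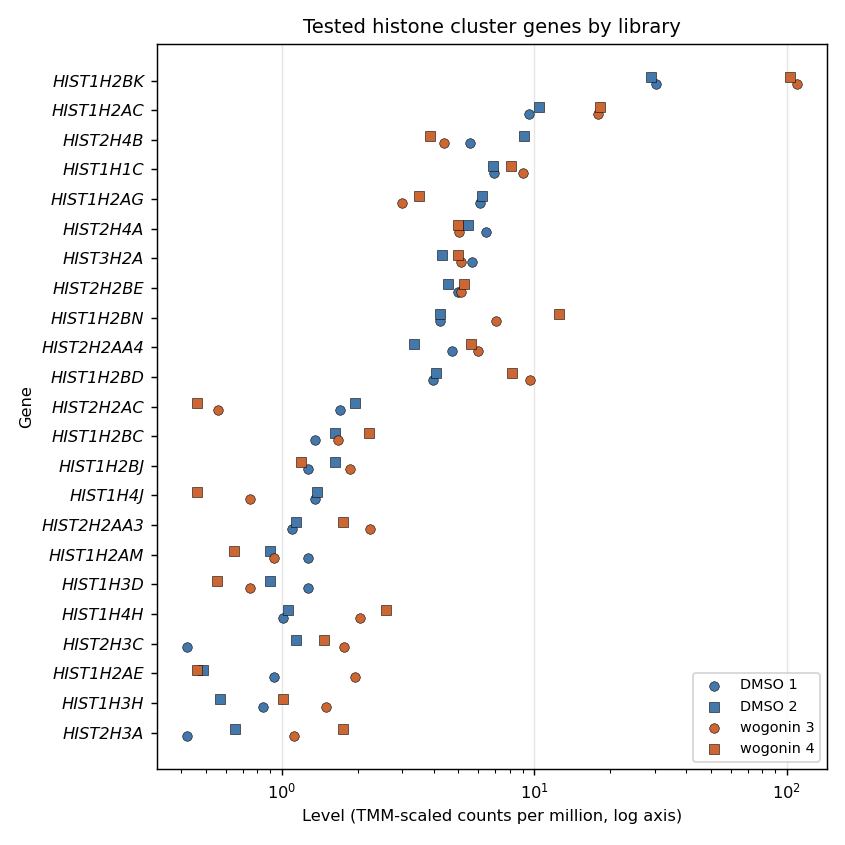
Level (horizontal log axis, TMM-scaled CPM) of the 23 cluster genes tested, 1 point a library. HIST1H2BK stands apart at 103 and 110 in the wogonin libraries, and the other cluster genes stay below 20.

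Of 8 cluster H2A genes tested 1 rose and 2 fell, where 63.8% of all genes passed. HIST1H2AC had 9.57, 10.4, 17.9 and 18.1 CPM, with both treated libraries above both vehicle libraries (log2 fold change 0.85, SE 0.13, edgeR adjusted p = 3.7e-05). HIST1H2AG had 6.10, 6.19, 2.98 and 3.50 CPM (log2 fold change -0.92, SE 0.23, edgeR adjusted p = 0.0024). HIST2H2AC had 1.69, 1.96, 0.559 and 0.460 CPM (log2 fold change -1.82, SE 0.45, edgeR adjusted p = 0.0022), a fall that DESeq2 did not call (adjusted p = 0.052). It reached the count minimum only in the DMSO libraries. These genes all encode replication-dependent H2A, and they went in both directions. HIST1H2AE, which did not pass, stood at 0.932, 0.489, 1.96 and 0.460 CPM, and its sign turned with the library left out: -0.60 without wogonin 3 and 1.45 without wogonin 4 (adjusted p = 0.030). HIST2H2AA4 passed at 0.78 without DMSO 1 (adjusted p = 0.043) and not with all libraries (0.52, adjusted p = 0.064).

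Few H3 and H4 cluster genes had reads enough to test. HIST2H3A had 0.424, 0.652, 1.12 and 1.75 CPM (log2 fold change 1.39, SE 0.49, edgeR adjusted p = 0.019), and HIST1H4H had 1.02, 1.06, 2.05 and 2.58 CPM (log2 fold change 1.15, SE 0.38, edgeR adjusted p = 0.014). HIST1H4J fell from 1.36 and 1.38 to 0.746 and 0.460 CPM (log2 fold change -1.17, SE 0.47, edgeR adjusted p = 0.037). HIST2H4B had 5.59, 9.12, 4.38 and 3.87 CPM (log2 fold change -0.84, SE 0.25, edgeR adjusted p = 0.0083), with DMSO 2 well above the rest. HIST2H3A reached the count minimum only in the wogonin libraries, and HIST1H4J only in the DMSO libraries. None of these 4 calls held in all settings. DESeq2, which called 49.8% of all genes, called none of them, with adjusted p of 0.17, 0.14, 0.26 and 0.057 in that order. Without DMSO 1, DMSO 2 or wogonin 4 the call on HIST2H3A was lost (adjusted p = 0.19, 0.076 and 0.21), and so was that on HIST1H4H (0.10, 0.087 and 0.11). Leaving out any library ended the call on HIST1H4J (adjusted p from 0.066 to 0.24), and leaving out DMSO 2 ended that on HIST2H4B (-0.44, adjusted p = 0.20). HIST2H3C, which did not pass, did so without DMSO 2 (1.90, adjusted p = 0.043).

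Several HIST2 genes on chromosome 1 exist as near-identical copies whose reads cannot be placed. No read of HIST2H3A, HIST2H3C, HIST2H4B or HIST2H2AA4 matched 1 place, and for HIST1H4J the share was 30.4%. Copies were therefore also summed. HIST2H4A and HIST2H4B together had 142, 179, 101 and 96 reads (13.3 ± 1.81 to 9.13 ± 0.407 CPM, SD, n = 2). HIST2H3A and HIST2H3C together had 10, 22, 31 and 35 reads (1.32 ± 0.668 to 3.06 ± 0.236 CPM). HIST2H2AA3 and HIST2H2AA4 together had 69, 55, 88 and 80 reads (5.16 ± 0.965 to 7.78 ± 0.591 CPM). In each pair the libraries of the groups did not overlap, which was also so for 81.9% of all genes tested. The HIST2H3 and HIST2H4 copies also overlap each other on opposite strands. With reads that matched 1 place, 24 histone genes could be tested, of which 6 rose and 10 fell, beside 64.6% of 12394 genes that passed. All 16 of the 19 calls that could be tested there kept their direction, and HIST2H3A, HIST2H4B and HIST1H4J could not be.

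The 54 genes not tested had at most 36 reads over the 4 libraries, and 16 of them had none. HIST1H2AJ had 10, 8, 8 and 10 reads, HIST2H2BF had 14, 7, 5 and 6, and HIST1H2BH had 8, 9, 7 and 7. HIST1H4E had 11, 10, 4 and 6, and HIST4H4 had 7, 6, 8 and 4. At this depth 3 reads, the floor used here, were worth 0.253 to 0.273 CPM, and differences in these genes were not detectable.

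Other genes of the histone pathway, taken from lists chosen for their function with earlier results of these data known, moved in both directions. Of 36 genes for histone mRNA transcription and 3′ end processing, all tested, 17 rose and 9 fell (median log2 fold change 0.18), beside 32.3% and 31.5% of all genes. SLBP, which binds the stem-loop shown above and is needed for its processing, rose from 73.7 ± 0.624 to 137 ± 9.50 CPM (SD, n = 2), or by 0.89 on the log2 scale (edgeR adjusted p = 2.3e-08). ZNF473, a zinc finger protein of the U7 particle that cuts histone mRNAs, rose by 1.13 on the log2 scale (adjusted p = 5.2e-09). NPAT, the coactivator of cluster histone transcription, fell by 0.35 on that scale (adjusted p = 0.0044). POU2F1, which binds the octamer, fell by 1.32 (adjusted p = 2.7e-09), and the cyclin gene CCNA2 fell by 0.96 (adjusted p = 2.4e-09).

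Of 34 genes for histone chaperones and deposition, 17 rose and 9 fell (median log2 fold change 0.13), beside the same 32.3% and 31.5%. ANP32E, which removes H2A.Z from nucleosomes, stood at -1.13 on the log2 scale (edgeR adjusted p = 1.3e-10). HIRA, which deposits H3.3, had 1.04 (adjusted p = 1.9e-09), and TONSL, which reads new histone H4 behind the replication fork, had 1.33 (adjusted p = 6.1e-10). NASP and ASF1A, which carry H3 and H4, had -0.87 and -1.32, and HJURP, which deposits CENPA, had -0.94; these 3 were chosen after their values were seen. Of 25 S phase replication genes 13 rose and 9 fell (median log2 fold change 0.25), beside 63.8% of all genes that passed in either direction. RRM2, a subunit of ribonucleotide reductase, had -1.02, the flap endonuclease gene FEN1 had 1.01, and MCM4 of the replicative helicase had 0.77.

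The list of histone-like genes outside the naming rule held 10 genes, of which 6 were tested, 2 rose and 3 fell (median log2 fold change -0.20), beside 32.3% and 31.5% of all genes. CENPA, the H3 variant of centromeres, went from 42.8 ± 3.82 to 15.1 ± 0.786 CPM (SD, n = 2), at a log2 fold change of -1.50 and an edgeR adjusted p of 8.7e-09. In total gene reads, which add the introns, the fall was smaller (-0.54, adjusted p = 2.1e-04). POLE3, a histone-fold protein of DNA polymerase epsilon, had 0.59, and HP1BP3, which carries linker-histone-like domains, had -0.33. H2BFM, H2BFWT, H2BFS and H2BFXP had too few reads to test.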

How the data were processed

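Histone genes were compared between 2 wogonin and 2 DMSO libraries of A2780 cells. The genes and the pathway lists were chosen with earlier results of these data known. For each library the authors deposited a table of counts per gene (exon, intron and junction reads, in total and matching 1 place), per the file headers, with builds GRCh 37 and hg 19 named in the submitters' processing notes. TPM and RPKM computed by the authors stand beside them, as do deposited fractions of unique and of intron reads, which were not used for results. The sources used here do not give the aligner, the counter, the annotation or the use of strand. Total exon counts, 11005921 to 11839562 a library, were tested over all genes with edgeR 4.0.16 in R 4.3.3 (TMM scaling after filterByExpr, robust quasi-likelihood test, 2-sided), with Benjamini-Hochberg adjustment over 13449 genes and a threshold of 0.05. The common biological coefficient of variation was 5.60%. The SE is the log2 fold change over the square root of F. The test was checked on simulated counts with few genes changed and the same biological variation for all genes. In these data 63.8% of genes passed, so the check does not show how the test performs at such a share. CPM are TMM-scaled, with SD over the 2 libraries of a group. Wilson intervals are at 95%, and intervals and the floor of 3 counts cover counting error only. Whether libraries came from separate cultures is not in the labels, and p-values then reflect the spread among these 4 samples, possibly technical. Genes named by rule with the value of every library are the up to 3 largest rises and falls that passed in each class and all variant genes tested. Other genes that did not pass were named after their values were seen, some with the value of every library. Of the untested genes the 5 with most reads are named, with their reads in every library. From each list the up to 3 genes with the smallest adjusted p are named, with SLBP, NPAT and CENPA. Alternatives were other scalings, filters, count columns, DESeq2 1.42.0 and leaving out each library. Stem-loops were read from GENCODE v29 by gene name, and promoters from RefSeq, using 1 start a gene.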

Additional observations from a re-analysis of the deposited data

How the results depend on the processing

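Of the 33 histone genes tested, none that passed changed direction under the 12 alternatives, 14 of the 19 calls held wherever the gene was tested, 5 were lost in at least 1 setting, and 4 genes gained a call in at least 1. The 5 lost were HIST2H2AC (DESeq2), HIST2H3A, HIST1H4H, HIST1H4J and HIST2H4B. DESeq2 called 5 histone genes higher and 9 lower, and 49.8% of all genes. Exon-exon junction reads, added after seeing the data, could test 9 histone genes and called 3 higher and 6 lower, since few cluster genes are spliced (55.7% of 11251 genes passed there). Leaving out each library in turn gave a median log2 fold change of -0.26 to 0.05 over the 34 to 36 histone genes tested. Over all genes tested it was -0.01 to 0.01. With library totals alone the all-gene median was -0.09, and 4977 of 13449 genes were called lower, against 4234 in the main fit. Of the chaperone genes 14 were called lower there, against 9. In the list of histone-like genes 1 was called higher, not 2, with library totals alone, total gene reads and junction reads. Those settings called 3660 of 13449, 4523 of 15201 and 3110 of 11251 genes higher, against 4343 of 13449 in the main fit. The cause was not tested. No paired analysis was possible because the groups share no replicate numbers. With 2 libraries a group, and at most 36 reads in genes left untested, small changes of weakly expressed cluster genes could not be seen.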

Other observations

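The HIST1 genes span 25726291 to 27861669 on chromosome 6 (GRCh37). Among them lie 71 other genes, taken as those that did not meet the rule for histone genes. That rule takes protein-coding genes only, so histone pseudogenes in the span, such as HIST1H2BPS1, can be among the 71. Of the 71, 17 were tested, none of them a histone pseudogene. In the wogonin libraries 13 of the 17 fell and 1 rose, beside 31.5% of all genes that fell. The median log2 fold change of the 17 was -1.01. The list was chosen by position with results of the histone genes known, and it was not tested as a set. The butyrophilin genes BTN3A2, BTN3A1 and BTN3A3, of a family known from gamma-delta T cell responses, had log2 fold changes of -2.06, -1.96 and -1.70 (edgeR adjusted p = 9.1e-09, 1.8e-08 and 1.9e-06). PRSS16, a thymic serine protease gene, had -1.40, and the zinc finger gene ZNF184 had -1.24. The gene that rose was HMGN4, a nucleosome-binding protein gene, at 0.25 (adjusted p = 0.014), a call lost in 7 of 12 alternatives (adjusted p up to 0.67), among them those without DMSO 1, DMSO 2 or wogonin 3. In the same span the histone gene HIST1H2BK rose by 1.83.

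Beside the 87 genes, 31 rows carry the same kinds of names without being protein coding. H1FX-AS1 had 60, 63, 13 and 7 exon reads. HIST2H2BD, a pseudogene for which the table lists no exon, had 74, 66, 27 and 30 reads in its gene column.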
